A study of Capra hircus with 3 samples.

Results

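The heat shock proteins and DNAJ cochaperones were taken as every gene of the goat liver single-cell count matrices whose symbol starts with HSPA, HSPB, HSPD, HSPE, HSPH, HSP90, DNAJA, DNAJB or DNAJC, which gave 63 of 27271 genes. They comprised 11 HSPA genes, 10 HSPB genes, HSPH1, 3 HSP90 genes, 2 DNAJA genes, 10 DNAJB genes and 26 DNAJC genes, with none under HSPD or HSPE. The prefix also takes in HSPBAP1 and HSPBP1, which are named for binding a heat shock protein, and HSPB11, which is known as a subunit of the intraflagellar transport complex. Since 9958 of the genes carry an identifier and no symbol, HSPA1A, HSPA1B, HSPA4, HSPD1, HSPE1, DNAJA1, DNAJA2, DNAJB1, DNAJB6 and DNAJC19 were not found by name and were not analysed here. Of the 63, DNAJB8, DNAJC5G, HSPB3, HSPB6, HSPB7 and HSPB9 had 0 unique molecular identifiers (UMIs, the counted transcript molecules) in all 3 libraries, DNAJC30, DNAJC5B and HSPA2 had 1 to 19 over the 3 libraries, and 54 had at least 20.

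Livers came from female goats (Capra hircus) aged 3 to 4 years. The Con goats were healthy and fed an LRDS diet, the NASH goats had non-alcoholic steatohepatitis and were fed an HRDS diet, and the NASH-T goats were fed the same HRDS diet and are described as tolerant of the disease. Liver from 5 goats was pooled per group and made into 1 droplet 3' library, so there are 3 libraries from 15 goats, no replicate check exists for any difference and no p-value is given. Differences between goats cannot be told apart from differences between the groups. The liver of every group was digested with 0.25% trypsin for 40 min at 37 °C and passed through a 40 µm strainer.

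HSP70 proteins (the HSPA genes) bind exposed hydrophobic stretches of unfolded proteins in cycles of ATP hydrolysis. J-domain proteins (the DNAJ genes) deliver substrates and start the hydrolysis, and HSP110 proteins and other exchange factors release the nucleotide. HSP90 proteins act later on signalling proteins and steroid receptors, and small heat shock proteins (HSPB) hold unfolded proteins without ATP. Separate sets serve the cytosol, the mitochondria and the endoplasmic reticulum, and in liver the last of these folds the large load of secreted plasma proteins.

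After removal of 284, 342 and 459 predicted doublets, 7200 Con, 8389 NASH and 8914 NASH-T cells remained, with median depths between 2127.5 and 2472 UMIs. Between 20 and 23 cell barcodes were shared by each pair of libraries. The cells were clustered without the 63 genes and 8 classes with at least 50 cells in every library were named from marker genes: hepatocyte-like (2874, 4069 and 3134 cells in Con, NASH and NASH-T, the order used throughout), macrophage-like (1376, 1289 and 1489), T cell-like (1393, 1345 and 1817), endothelial-like (362, 547 and 1015), stellate or fibroblast-like (262, 422 and 369), NK cell-like (250, 154 and 342), gamma-delta T cell-like (155, 110 and 244) and B cell-like (126, 98 and 191). In each of the 8, at least 5 markers stood at least 2-fold above the other cells. Defining markers at 0 were FCN3 in endothelial-like cells, NCAM1 and TYROBP in NK cell-like cells, IL17A in gamma-delta T cell-like cells (with SOX13 at 0 there in Con) and CD79B in the B cell-like cells of NASH. Mitochondrial transcripts made up 0.101, 0.0575 and 0.0968% of hepatocyte-like UMIs and 0.479, 0.639 and 1.28% of T cell-like UMIs.

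Levels are given in CPM, the usual depth-scaled count, which is the UMIs of a gene divided by all UMIs of its class in a library and scaled. Intervals are 95% intervals of the counts (exact Poisson for a level, exact conditional binomial for a ratio) and cover counting error only. A gene counted as measured in a comparison if the 2 libraries together gave 20 UMIs or more. It was called higher or lower where the ratio was at least 1.5 or at most 0.667 with an interval that excludes 1. Apart from the part of 1 gene in summed UMIs, levels were not compared between genes. The comparisons gave 63 calls of a gene in a class. Pairs of a gene and a class measured numbered 255 in NASH against Con, 272 in NASH-T against Con and 269 in NASH-T against NASH. The shares of all genes called are given class by class below. Of the 63 calls, 15 held under every alternative processing tried: DNAJC12 in hepatocyte-like, DNAJC6 in macrophage-like, T cell-like and gamma-delta T cell-like, HSPB1 in T cell-like, DNAJB4 and HSP90AB1 in endothelial-like, DNAJC24 in stellate or fibroblast-like, and DNAJC2, HSP90AB1 and HSP90B1 in gamma-delta T cell-like cells, in 1 or 2 comparisons each. The share of calls that hold was not worked out for all genes, so 15 cannot be read as many or few. Free RNA from lysed cells can give UMIs in cells that do not express a gene. Here 12 abundant hepatocyte transcripts together reached 9499, 11987 and 12675 CPM in hepatocyte-like cells and still 4351, 5466 and 5625 CPM in T cell-like cells. Whether free RNA, remaining doublets or misplaced cells supply the latter was not tested.

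The 63 genes together were a small share of all UMIs, given here for Con, NASH and NASH-T. In hepatocyte-like cells they made up 0.258, 0.268 and 0.267%, in macrophage-like cells 0.276, 0.274 and 0.304%, and in gamma-delta T cell-like cells 0.434, 0.417 and 0.360%. One gene, DNAJC1, a J protein of the endoplasmic reticulum membrane, supplied 22.6%, 32.6% and 31.6% of these UMIs in hepatocyte-like cells. Without it the hepatocyte-like share was 0.199%, 0.181% and 0.182%, highest in Con.

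Some genes of the family stood highest in the same class in every library. By rank, 20 of the 63 were counted with the same highest class in all 3 libraries. That count takes in the 6 genes with 0 UMIs, which tie at 0 in every class and have no highest one. With at least 50 UMIs over the 3 libraries in that class, 5 stood at least 4-fold above the median of the 8 classes in every library. They were DNAJB4 and HSPB1 in endothelial-like cells, DNAJC12 and HSPB8 in hepatocyte-like cells, and HSPA4L in gamma-delta T cell-like cells. No share over all genes is given for these counts, so they do not show whether the family differs from other genes. DNAJB4, a stress-responsive partner of HSP70, reached 225, 222 and 421 CPM in endothelial-like cells, which was 15.9, 21.6 and 23 times the median class. Its second class was the stellate or fibroblast-like cells at 164, 162 and 193 CPM, and no other class passed 29 CPM. HSPB1 (HSP27), an actin-binding small heat shock protein, was at 96, 94.2 and 133 CPM in endothelial-like cells.

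DNAJC12, a cochaperone known for its tie to the aromatic amino acid hydroxylases such as phenylalanine hydroxylase of the liver, was at 349.7, 182 and 262 CPM in hepatocyte-like cells, 21.9, 8.15 and 15.4 times the median class. HSPB8, which works with BAG3 in the removal of misfolded proteins by autophagy, was at 32.1, 50.4 and 29.1 CPM there. HSPA4L, an HSP110 exchange factor, was at 99.7, 76.5 and 44.7 CPM in gamma-delta T cell-like cells, from 23, 13 and 17 UMIs. DNAJC13, an endosomal J protein, was highest in macrophage-like cells at 401, 401 and 441 CPM, about 2.05, 1.72 and 1.97 times the median class and so under the 4-fold line. The heat map of levels shows these blocks beside genes such as HSPA8 and HSP90B1 that all 8 classes carried.

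**Figure D1:**
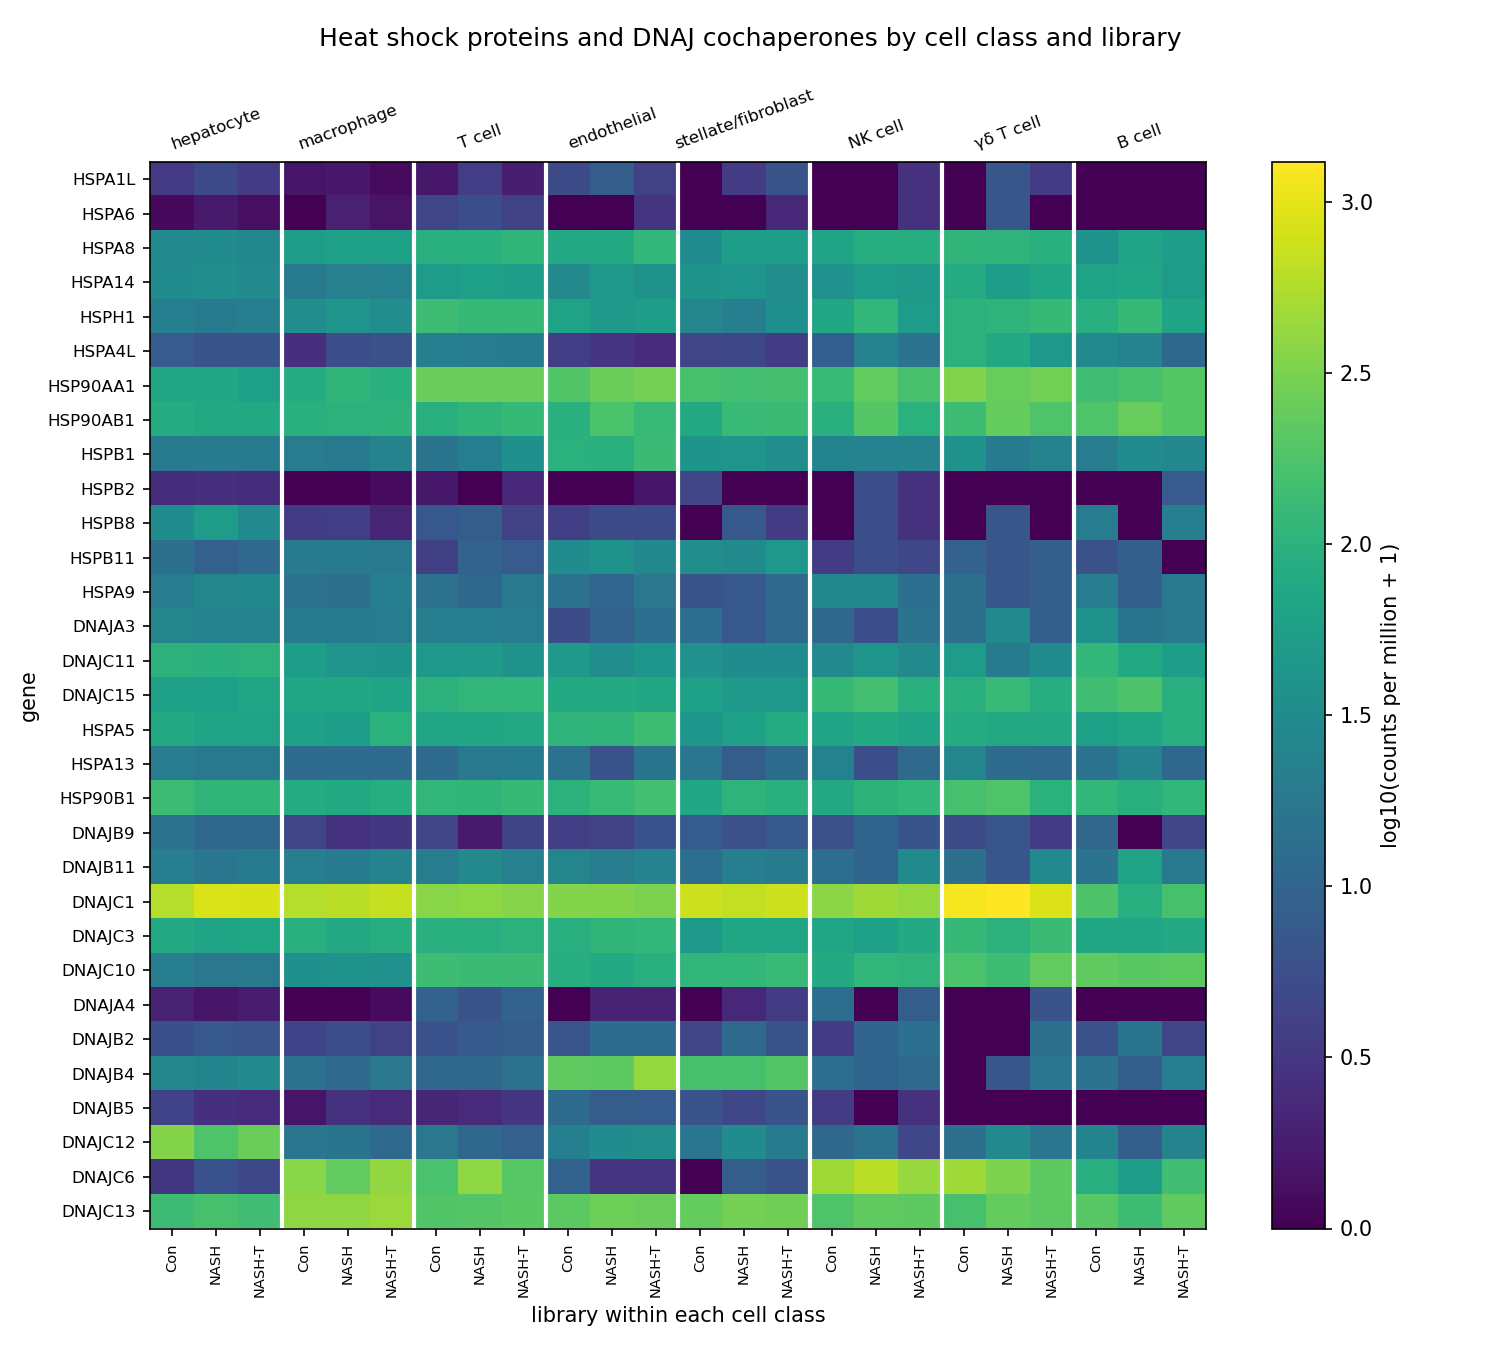
Level of the genes of the 7 role lists with at least 20 UMIs, and of DNAJC12, DNAJC6 and DNAJC13 (rows), in 8 cell classes, each in the Con, NASH and NASH-T libraries (columns). Colour is log10(CPM + 1). DNAJB4 is brightest in endothelial-like and stellate or fibroblast-like cells, DNAJC12 and HSPB8 in hepatocyte-like cells and DNAJC6 in the lymphocyte and macrophage-like classes.

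Plasma cell-like cells numbered 115, 49 and 161, under 50 in NASH, and are given as values only. Of the 8 genes of the ER list, 6 were above all 8 classes in each library, and DNAJC1 (at 551, 628 and 539 CPM) and DNAJC10 (at 194, 113 and 133 CPM) were not. HSP90B1 (GRP94), the HSP90 of the endoplasmic reticulum, was at 807, 842 and 713 CPM, 5.03, 4.62 and 4.74 times the highest of the 8 other classes. HSPA5 (BiP), the HSP70 of the endoplasmic reticulum, was at 372, 339 and 271 CPM, 3.56, 3.15 and 1.95 times the highest other class. DNAJC3, DNAJB11 and DNAJB9, J proteins that serve HSPA5, were at 257, 352 and 413 CPM, 83.9, 113 and 106 CPM and 31.5, 50.3 and 53 CPM. The sixth was HSPA13, and outside the list DNAJC25 and DNAJA3 were above all 8 classes too. DNAJB9 had only 6, 4 and 18 UMIs, HSPA13 16, 4 and 16 and DNAJA3 9, 3 and 9, and DNAJA3 was only 1.21, 1.28 and 1.15 times the highest other class.

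In hepatocyte-like cells DNAJC12 was called lower in NASH than in Con under every alternative tried. DNAJC1, HSPB8, DNAJC6, DNAJC22 and HSPA1L were also called higher and DNAJB5 and HSPB11 lower in that comparison, and each of these 7 calls ended under at least 1 alternative. None of the 6 analysed genes of a list of 12 heat-inducible targets was called. HSPA1A, HSPA1B, HSPD1, HSPE1, DNAJA1 and DNAJB1 of that list were not analysed. Of 51 genes measured, 5 were called higher and 3 lower in NASH than in Con, where 5.22% and 11.4% of all measured genes were. The median log2 ratio was -0.05 for the 51 and -0.12 for all genes. In NASH-T against Con, 1 of 51 was called higher and 1 lower, against 4.62% and 8.02% of all genes, with a median of -0.10 for the 51 and -0.10 for all genes. In NASH-T against NASH, 0 were called higher and 2 lower, against 8.12% and 4.88% of all genes, and the medians were -0.06 and 0.00. In NASH against Con, 42 of the 51 lay between 0.667 and 1.5, and DNAJA4 lay outside with no call on 15, 11 and 11 UMIs. The 3 comparisons share libraries and are not independent of each other.

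**Figure D2:**
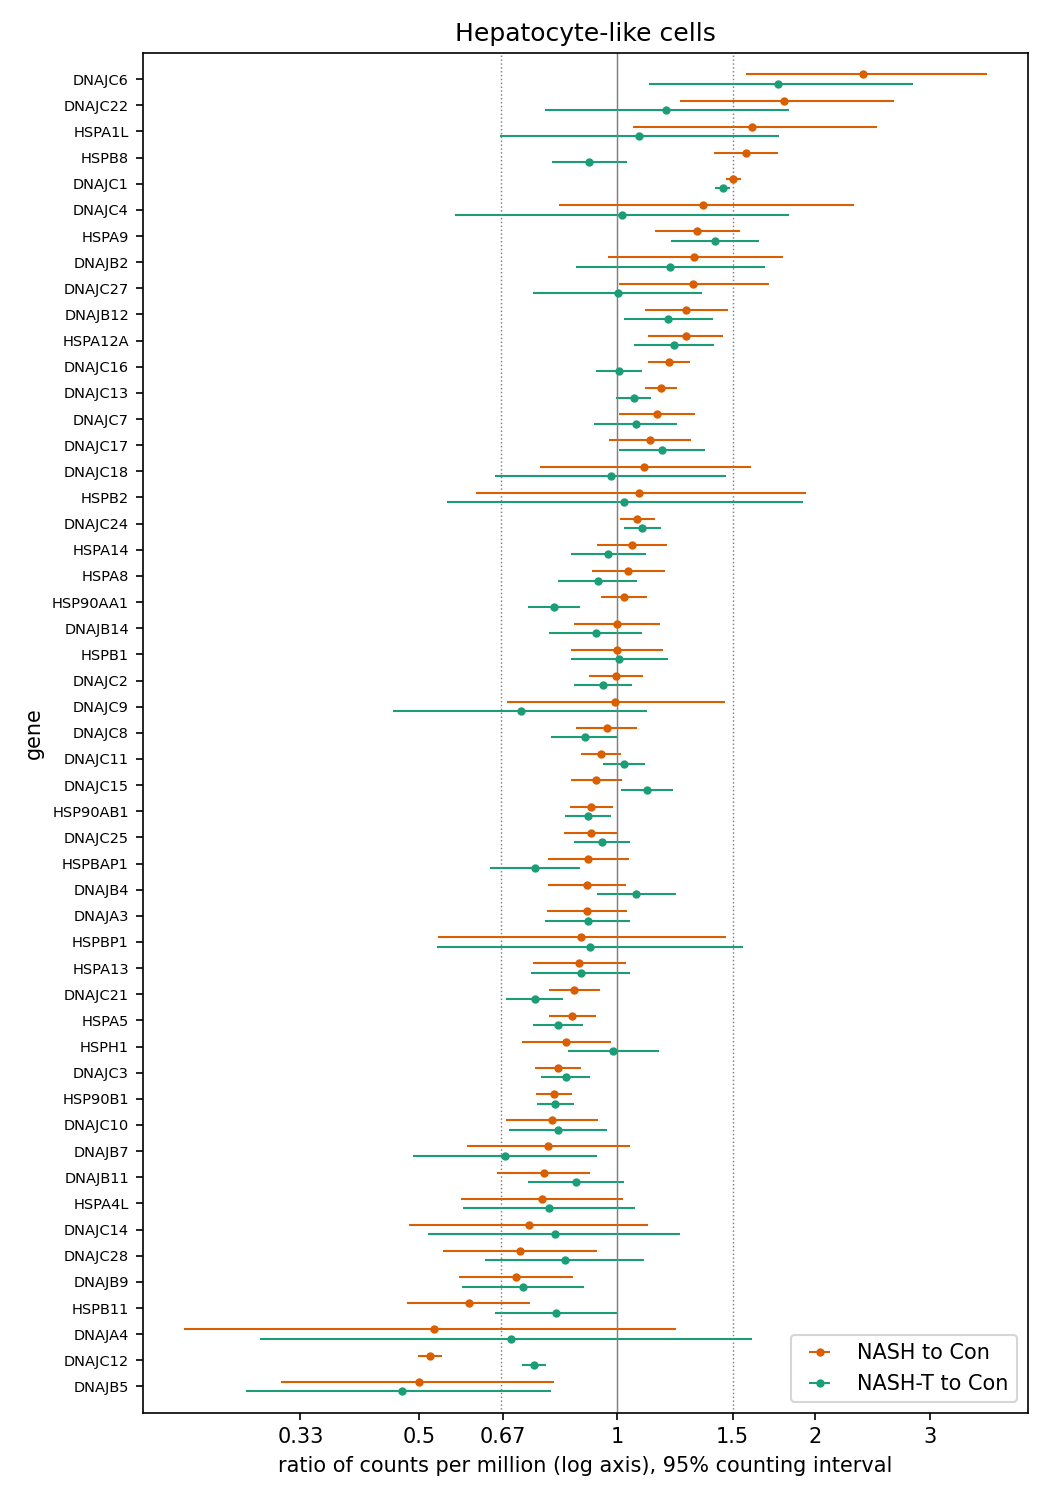
Ratio of CPM to Con in hepatocyte-like cells (x axis, log scale) for the genes measured in both comparisons (y axis), NASH in orange and NASH-T in green. Bars are 95% counting intervals and dotted lines mark ratios of 0.667 and 1.5. Most genes lie between the dotted lines, with DNAJC6, DNAJC22, HSPA1L, HSPB8 and DNAJC1 past the upper line or on it in NASH and DNAJB5, DNAJC12 and HSPB11 past the lower.

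The composition of the hepatocyte-like class differed between the libraries, and every ratio of the class is a mean over that composition. The LGR5-led cluster 3 took 44.6%, 6.09% and 27.2% of hepatocyte-like cells, with 19.5%, 8.28% and 23% in the HAL-led cluster 5 and 27.3%, 12.1% and 37.6% in cluster 2. The FASN-led cluster 6 and the CYP7A1-led cluster 7 came almost wholly from NASH, at 0.139%, 36.8% and 1.37% and 0.418%, 32.3% and 1.47%. Cluster 12, of low depth (median 819 UMIs), took 7.93%, 4.52% and 9.41%. Every library filled clusters 2, 3, 5 and 12, and levels or ratios within these are therefore also given. What the shift in clusters contributes to the ratios of the class was not tested further.

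DNAJC12 was lowest in NASH. It had 5016, 3622 and 3992 UMIs, or 349.7 (95% interval 340.1 to 359.5), 182 (95% interval 176 to 188) and 262 (95% interval 254 to 270.2) CPM. None of the intervals overlap, with Con highest, NASH-T between and NASH lowest. The ratio was 0.52 (0.50 to 0.54) in NASH against Con, 0.75 (0.72 to 0.78) in NASH-T against Con and 1.44 (1.38 to 1.51) in NASH-T against NASH, of which the first was called. The order held within clusters 2, 3 and 5 but not in cluster 12. NASH stood at 0.60, 0.61 and 0.58 of Con in clusters 2, 3 and 5, and NASH-T at 0.77, 0.79 and 0.70. In cluster 12 DNAJC12 was at 229, 157 and 244 CPM on 62, 30 and 85 UMIs, and both ratios to Con, 0.68 and 1.06, had intervals that include 1. Thinning cut each cell to 1000 UMIs and left out cells with fewer, which kept 2689, 3860 and 2926 hepatocyte-like cells. Of these, 28.1% (95% interval 26.4 to 29.9%), 16.6% (95% interval 15.4 to 17.8%) and 22% (95% interval 20.5 to 23.6%) had a DNAJC12 UMI, in the same order. The same share in T cell-like cells was 1.48%, 1.19% and 1.06%. Thinning kept only 877, 675 and 1136 of the 1393, 1345 and 1817 T cell-like cells. Unthinned, 65.4%, 47.6% and 55.1% of hepatocyte-like cells had one, at median depths of 4189.5, 3864 and 4029.5 UMIs.

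DNAJC1 was higher in NASH and NASH-T than in Con. Its level was 582 (95% interval 569.8 to 595), 875 (95% interval 862 to 888) and 843 (95% interval 829 to 858) CPM, and both libraries on the HRDS diet were above Con with no overlap of intervals. The ratio of 1.5 (1.46 to 1.54) in NASH was just past the line for a call, and that of 1.45 (1.41 to 1.49) in NASH-T just under it. Within clusters 2, 3 and 5 the ratios were 1.32, 1.41 and 1.12 in NASH and 1.51, 1.54 and 1.27 in NASH-T, and in cluster 12 they were 1.57 and 1.17. Over the clusters that every library filled the NASH ratio was 1.28, which ends the call. In the CYP7A1-led cluster 7 of NASH the level was higher than in any other cluster, as the plot of levels by hepatocyte cluster shows. In macrophage-like cells DNAJC1 was at 582, 626 and 694 CPM and in T cell-like cells at 368, 387 and 353 CPM, with no call.

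The other chaperones of the endoplasmic reticulum had no call in either HRDS library. HSP90B1 was at 135, 108 and 109 CPM, with ratios of 0.80 (0.75 to 0.85) and 0.81 (0.75 to 0.86) to Con. HSPA5 was at 76.5, 65.5 and 62.3 CPM, with ratios of 0.86 (0.79 to 0.93) and 0.81 (0.75 to 0.89). DNAJC3, also known as an inhibitor of stress kinases, was at 79.3, 64.5 and 66.3 CPM, with ratios of 0.81 (0.75 to 0.88) and 0.84 (0.77 to 0.91). Over the whole class the NASH to Con and NASH-T to Con ratios of these genes were below 1, short of the line for a call. In NASH, HSPA5 exceeded Con in clusters 3 (67.8 against 62.8 CPM), 5 (99.1 against 86.8) and 12 (225 against 218). It was lower in cluster 2 (72.9 against 77.8). HSP90B1 in NASH exceeded Con in cluster 5 (167 against 139 CPM) and was lower in clusters 2, 3 and 12. DNAJC3 in NASH exceeded Con in cluster 12 (105 against 92.3 CPM) and was lower in clusters 2, 3 and 5. In NASH-T HSPA5, HSP90B1 and DNAJC3 were below Con in clusters 2, 3, 5 and 12. In the whole class DNAJB9 was at 14.3, 10.03 and 10.3 CPM and DNAJB11 at 20.3, 15.7 and 17.6 CPM. DNAJC10, a disulfide reductase, was at 20.4, 16.3 and 16.6 CPM there, and HSPA13, a microsomal HSP70-like protein, at 19.5, 17.1 and 17.1 CPM. Over the 8 genes of the list the median log2 ratio was -0.31 in NASH and -0.28 in NASH-T against Con, but the summed UMIs gave ratios of 1.24 and 1.21. The sign differs because DNAJC1 outweighs the rest of the sum.

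Of the cytosolic HSP70 genes, HSPA8, the constitutive HSP70, was at 29.3, 30.5 and 27.4 CPM in hepatocyte-like cells and HSPA14, which works at the ribosome, at 31, 32.7 and 30.1 CPM. HSPA1L was at 2.37, 3.81 and 2.56 CPM and was called higher in NASH against Con at 1.61 (1.06 to 2.49), a call that ended in thinned cells. HSPA6, a strictly inducible HSP70, had only 3, 14 and 5 UMIs and was under the minimum in each comparison. Of the 14 in NASH, 11 lay in the low-depth cluster 12, where Con and NASH-T had 0. The exchange factors HSPH1 and HSPA4L were at 21.2, 17.8 and 20.9 CPM and 6.90, 5.32 and 5.45 CPM with no call. HSP90AA1, the inducible cytosolic HSP90, was at 71, 72.9 and 57 CPM, lowest in NASH-T at a ratio of 0.80 (0.73 to 0.88) to Con, and HSP90AB1, the constitutive one, was at 84.8, 77.5 and 76.7 CPM. A list of 12 heat-inducible targets of the heat shock factor HSF1 had 6 analysed genes (HSPA8, HSPH1, HSP90AA1, HSP90AB1, HSPB1 and HSPA4L). Of these 6, 0 were called in any of the 3 comparisons. Of all measured genes, 5.22% were called higher and 11.4% lower in NASH against Con. The shares were 4.62% and 8.02% in NASH-T against Con and 8.12% and 4.88% in NASH-T against NASH. Beside these small shares, 0 of 6 does not set the list apart from other genes. HSPA1A, HSPA1B, HSPD1, HSPE1, DNAJA1 and DNAJB1 of the list were not analysed.

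Among the small heat shock proteins, HSPB8 was higher in NASH. It had 460, 1004 and 444 UMIs and 32.1 (95% interval 29.2 to 35.1), 50.4 (95% interval 47.3 to 53.6) and 29.1 (95% interval 26.5 to 32) CPM, with NASH above both other libraries and Con and NASH-T overlapping. The ratio was 1.57 (1.40 to 1.76) for NASH to Con and 0.58 (0.52 to 0.65) for NASH-T to NASH. NASH was 1.24, 1.5 and 1.85 times Con in clusters 2, 3 and 5, and cluster 12 held 40.6, 41.8 and 20.1 CPM on 11, 8 and 7 UMIs. Over the clusters that every library filled the ratios were 1.35 and 0.67, and both calls ended. HSPB1 was at 18.4, 18.4 and 18.6 CPM, with ratios to Con of 1.00 (0.85 to 1.18) and 1.01 (0.85 to 1.20), and HSPB2 at 1.53, 1.66 and 1.58 CPM. HSPB11 was called lower in NASH at 0.60 (0.48 to 0.74), from 13.3, 7.93 and 10.8 CPM, but thinned cells gave 1.04 and the clusters that every library filled gave 0.68, so this call ended and its direction turned when thinned.

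**Figure D3:**
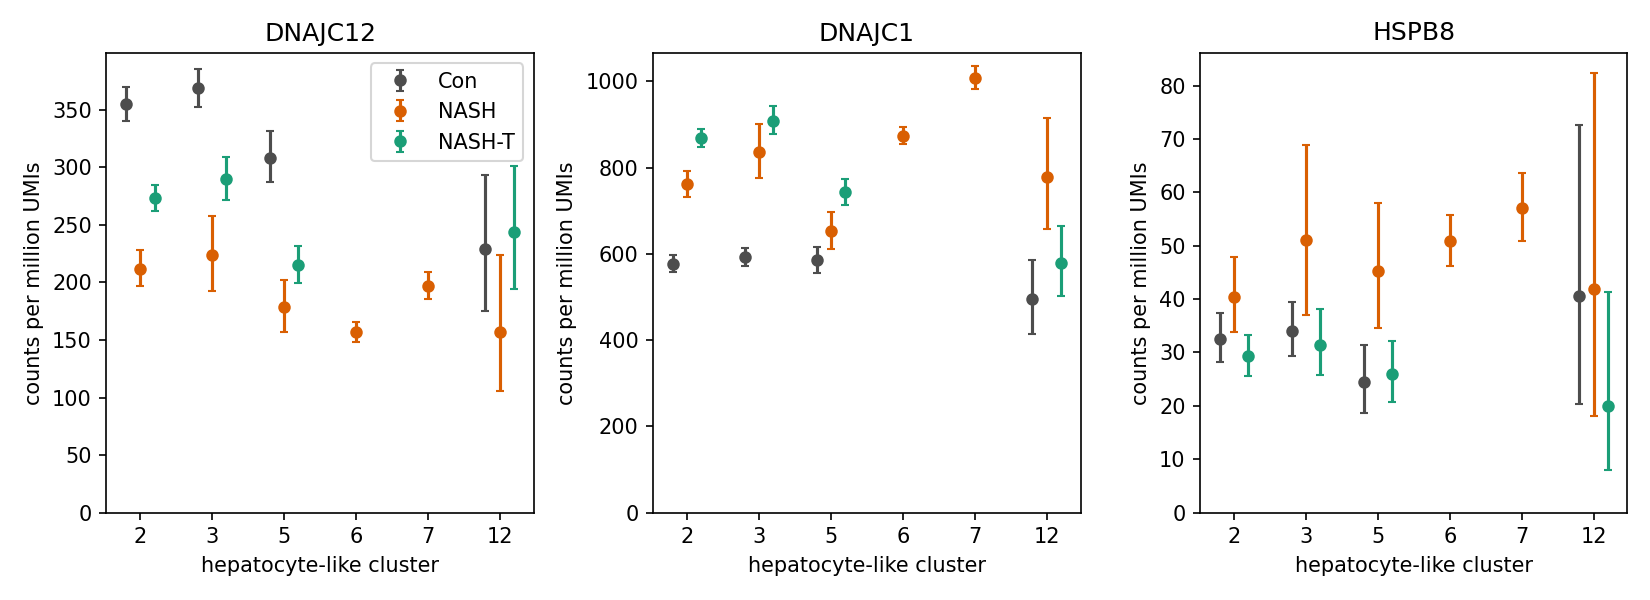
Level (CPM) of DNAJC12, DNAJC1 and HSPB8 in hepatocyte-like clusters 2, 3, 5, 6, 7 and 12 (x axis) for Con, NASH and NASH-T, with 95% Poisson intervals. Libraries with under 50 cells in a cluster are left out. In clusters 2, 3 and 5 DNAJC12 is highest in Con and lowest in NASH, and HSPB8 is highest in NASH. In cluster 12 the wide intervals of DNAJC12 and HSPB8 overlap between Con and both other libraries.

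HSPA9 (mortalin), the HSP70 of the mitochondrial matrix, was at 19.6, 26 and 27.6 CPM, with ratios to Con of 1.33 (1.14 to 1.54) in NASH and 1.41 (1.21 to 1.65) in NASH-T. Both intervals exclude 1 and both ratios are under 1.5. Its partner DNAJA3 was at 25.6, 23 and 23.1 CPM, DNAJC11, a protein of the cristae junction complex, at 98.7, 93.4 and 101 CPM, and DNAJC15, a J protein of the import motor, at 60.2, 56 and 66.9 CPM. None of the 4 was called in any comparison. Of the classical J proteins, DNAJB5 was called lower in NASH at 0.50 (0.31 to 0.80) and in NASH-T at 0.47 (0.27 to 0.79), from 3.21, 1.61 and 1.51 CPM and 46, 32 and 23 UMIs, and neither call held in thinned cells. DNAJB4 (27.1, 24.4 and 29 CPM), DNAJB2 (4.74, 6.22 and 5.71 CPM) and DNAJA4 (1.05, 0.552 and 0.722 CPM) had no call.

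DNAJC22 was called higher in NASH than in Con at 1.80 (1.25 to 2.64) and lower in NASH-T than in NASH at 0.66 (0.47 to 0.93), from 42, 105 and 53 UMIs and 2.93, 5.27 and 3.48 CPM. NASH was again the high library, and both calls ended in thinned cells. DNAJC6 (auxilin), which takes the clathrin coat off vesicles together with HSPA8, was at 2.16, 5.12 and 3.81 CPM in hepatocyte-like cells, far under the 364, 236 and 413 CPM of macrophage-like cells. Its ratio was 2.37 (1.57 to 3.66) in NASH and 1.76 (1.12 to 2.82) in NASH-T against Con on 31, 102 and 58 UMIs. In thinned cells these were 1.39 and 0.71, so both calls ended, and the ratio for NASH-T also fell to 1.41 with predicted doublets kept. Whether RNA of other cells supplies these UMIs was not tested.

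Along the liver lobule, LGR5 marks hepatocytes near the central vein and HAL those near the portal vein. Of 34 genes measured in the LGR5-led and HAL-led clusters of every library, HSPA12A, a distant HSP70 relative, was the 1 called higher in the LGR5-led cluster in all 3 libraries, and 0 were called lower in all 3. Of all genes, 2.63% were called higher and 3.14% lower in all 3. HSPA12A was at 28.7 against 16.3, 38.1 against 13.8 and 61.2 against 9.29 CPM, so the LGR5-led cluster was higher in every library, by ratios of 1.76 (1.24 to 2.56), 2.75 (1.51 to 5.13) and 6.59 (4.48 to 10.0). The clusters were built from the expression of these cells, with the 63 genes left out of the genes used.

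In macrophage-like cells the leading genes were DNAJC6, lower in NASH, and HSPA5, higher in NASH-T. Of 42 genes measured in NASH against Con, 2 were called higher and 1 lower (background 3.54% and 4.62% of all measured genes). In NASH-T against Con the counts were 2 higher and 1 lower of 44 (background 3.32% and 6.15%), and in NASH-T against NASH 5 higher and 0 lower of 43 (background 4.13% and 5.39%). The median log2 ratio of the genes in the last comparison was -0.01, beside -0.02 for all genes.

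DNAJC6 had 1467, 762 and 1847 UMIs in macrophage-like cells, or 364 (95% interval 346 to 383), 236 (95% interval 219.8 to 254) and 413 (95% interval 394 to 432) CPM. NASH was the lowest library, NASH-T the highest, and no intervals overlapped. The ratio was 0.65 (0.59 to 0.71) for NASH to Con, 1.13 (1.06 to 1.21) for NASH-T to Con and 1.75 (1.61 to 1.90) for NASH-T to NASH, and the first and the last were called. By cluster, NASH stood at 0.58 of Con in cluster 0 and at 0.95 in cluster 8, while NASH-T to NASH was 1.72 and 1.67. In thinned cells 22.2%, 13.9% and 25.7% had a DNAJC6 UMI, against 0.335%, 0.415% and 0.239% of hepatocyte-like cells. In T cell-like cells NASH was instead the highest library. There DNAJC6 was at 166 (95% interval 148 to 187), 384 (95% interval 354 to 417) and 201 (95% interval 183 to 219.5) CPM, and the interval of NASH lay above both others. The ratios were 2.31 (2.00 to 2.67) for NASH to Con, 1.21 (1.04 to 1.40) for NASH-T to Con and 0.52 (0.46 to 0.59) for NASH-T to NASH. NASH to Con was 2.71 in cluster 1 and 2.30 in cluster 9 but 0.75 in cluster 13.

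The other lymphocyte classes also carried DNAJC6. NK cell-like cells held 467, 619 and 438 CPM with no call. Gamma-delta T cell-like cells held 473, 329 and 221 CPM, lower in NASH-T than in Con at 0.47 (0.35 to 0.63). B cell-like cells held 92.3, 53.9 and 144 CPM from 19, 7 and 42 UMIs, with NASH-T to NASH at 2.67 (1.19 to 7.04); thinned cells gave 1.09. Endothelial-like cells held 8.47, 2.09 and 2.02 CPM. The panel of DNAJC6 by class shows NASH lowest in macrophage-like cells and highest in T cell-like cells. That the 2 classes differ was not tested, since each group is 1 library.

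**Figure D4:**
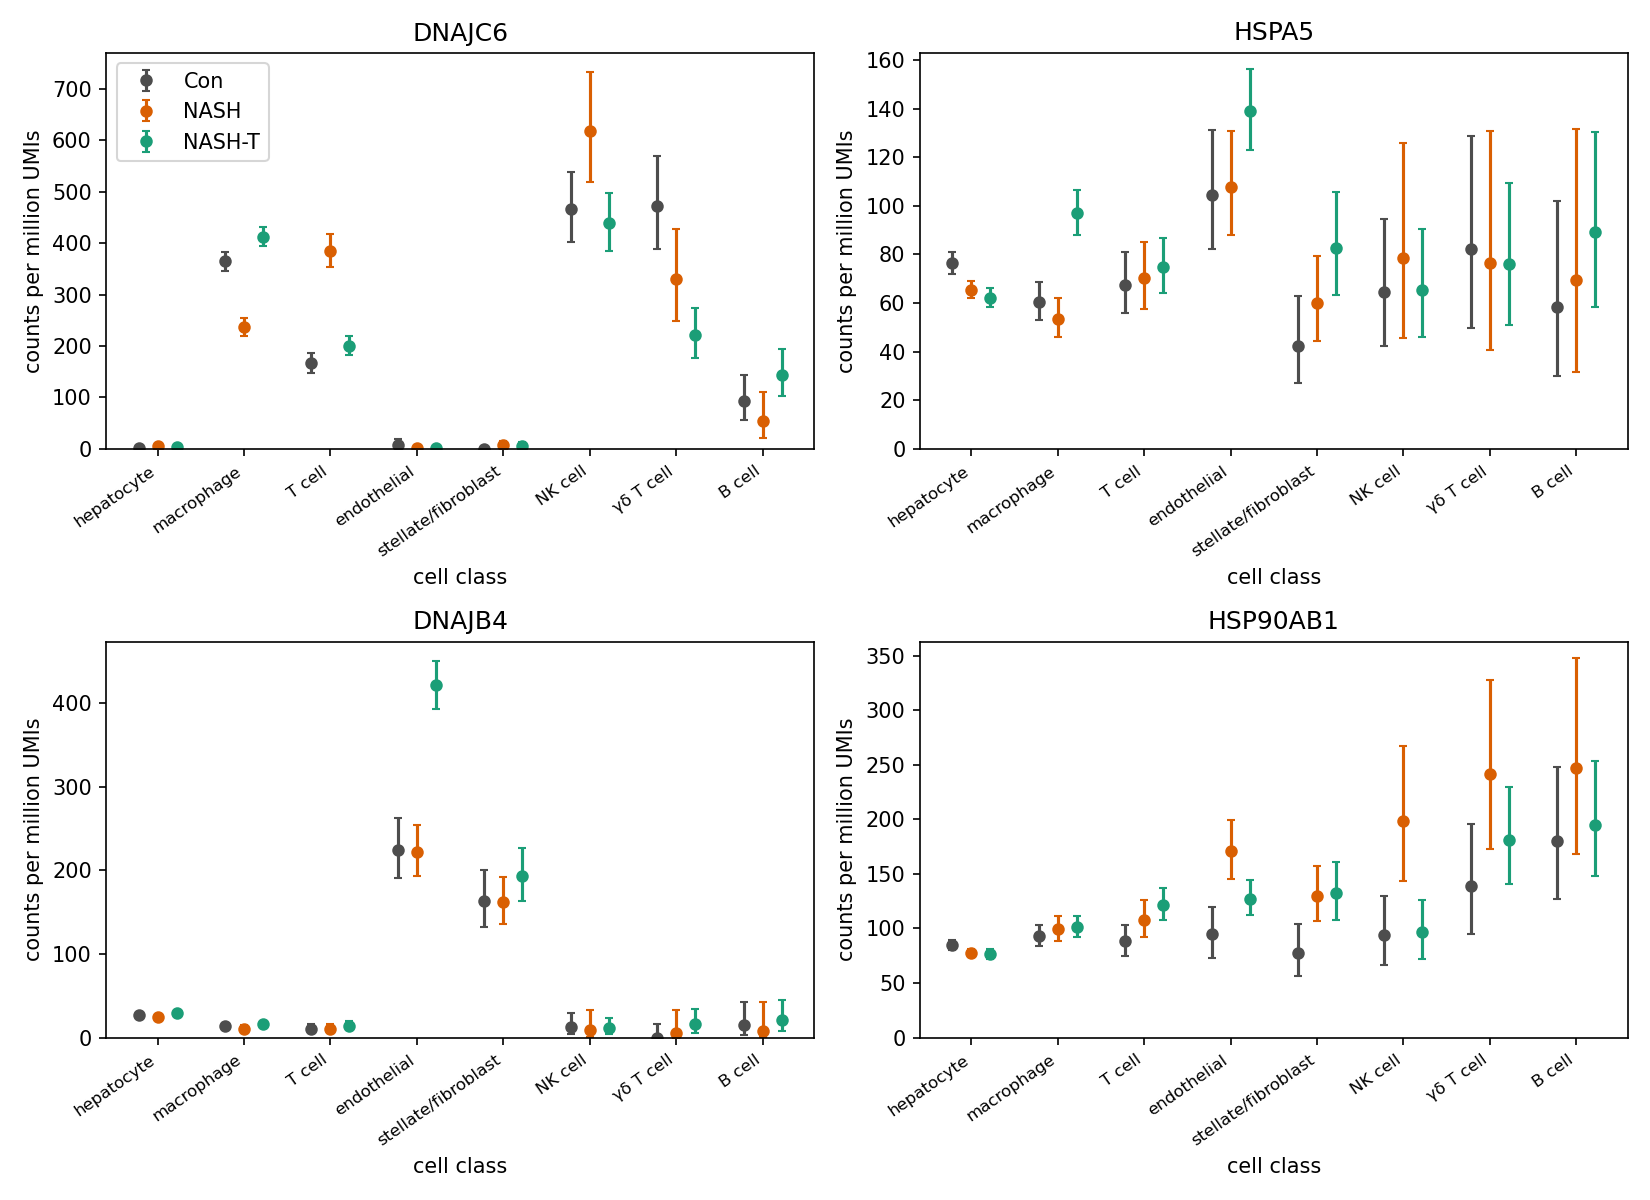
Level (CPM, y axis) of DNAJC6, HSPA5, DNAJB4 and HSP90AB1 in 8 cell classes (x axis) for Con, NASH and NASH-T, with 95% Poisson intervals. DNAJC6 is lowest in NASH in macrophage-like cells and highest in NASH in T cell-like cells, HSPA5 is highest in NASH-T in macrophage-like and endothelial-like cells, DNAJB4 is highest in the endothelial-like cells of NASH-T, and HSP90AB1 is above Con in NASH in every class but the hepatocyte-like cells.

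HSPA5 was at 60.6 (95% interval 53.2 to 68.7), 53.6 (95% interval 45.9 to 62.3) and 97 (95% interval 88.1 to 107) CPM in macrophage-like cells, and NASH-T lay above Con and NASH, which overlap. The ratio was 1.60 (1.37 to 1.88) to Con and 1.81 (1.51 to 2.17) to NASH. NASH-T to Con was 1.5 in cluster 0 and 1.93 in cluster 8. In thinned cells the ratios were 1.44 and 1.36, which ends both calls. The other ER chaperones did not follow at that size: HSP90B1 was at 82, 77.2 and 87.2 CPM, DNAJC3 at 88.4, 75 and 87.2 CPM, DNAJB11 at 20.4, 18.3 and 23.7 CPM, DNAJC10 at 35.3, 38.1 and 36.9 CPM and HSPA13 at 11.2, 11.8 and 11.4 CPM, with no call. Of 18 measured genes of the unfolded protein response, the signalling that raises ER chaperones, 3 were called higher in NASH-T than in NASH, where 4.13% of all genes were: PDIA4 at 3.15 (1.44 to 7.87), PDIA6 at 1.51 (1.22 to 1.89) and HYOU1 at 3.60 (1.21 to 14.5). PDIA4 and PDIA6 are disulfide isomerases and HYOU1 is an exchange factor for HSPA5. PDIA4 had 35 and 8 UMIs and HYOU1 20 and 4. In NASH against Con 2 of 18 were called lower (background 4.62%), ERN1, the stress sensor IRE1, at 0.56 (0.40 to 0.77) and HYOU1 at 0.29 (0.07 to 0.90).

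Immediate early genes such as FOS and JUN, which tissue dissociation is known to induce, had their highest summed level in NASH-T in each class given here. Of 18 such genes in the matrices, 13 were measured in macrophage-like cells and 9 of the 13 were called higher in NASH-T than in Con (background 3.32%). Their summed level there was 712, 853 and 1694 CPM, with EGR1 at 0 in Con and SOCS3 at 0 in NASH. In endothelial-like cells it was 1096, 1162 and 1773 CPM and in hepatocyte-like cells 333, 337 and 482 CPM, with none of the 18 at 0 in any library. Stellate or fibroblast-like cells had 637, 391 and 713 CPM, with JUNB and IER3 at 0 in Con and ATF3 and IER2 at 0 in NASH. T cell-like cells had 324, 288 and 422 CPM, with SOCS3 at 0 in NASH and EGR1 and SOCS3 at 0 in NASH-T. Of those measured, 4 of 12 in endothelial-like (background 5.19%) and 6 of 17 in hepatocyte-like cells (4.62%) were called higher in NASH-T than in Con. So were 1 of 8 in stellate or fibroblast-like (background for both directions 9.21%) and 2 of 12 in T cell-like cells (3.64%). In T cell-like cells 1 of the 12 was called lower (background 3.23%). The part of these genes in the results on HSPA5, DNAJB4 and HSPB1 was not tested.

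The remaining macrophage-like calls rest on few UMIs. HSPA9 was at 13.9, 13.3 and 20.8 CPM, with NASH-T to NASH at 1.56 (1.08 to 2.29), and DNAJB4 at 13.7, 10.5 and 16.1 CPM, with 1.53 (1.00 to 2.37). Both calls ended with doublets kept, at 1.26 and 1.31. DNAJC14 was called higher in NASH-T than in NASH at 2.00 (1.03 to 4.10) on 20, 13 and 36 UMIs, and doublets kept gave 1.33. HSPA4L was called higher in NASH and NASH-T than in Con at 2.68 and 2.83 on 7, 15 and 22 UMIs, with thinned values of 1.09 and 2.44. DNAJC27 was called higher in NASH than in Con at 1.85 (1.06 to 3.28) on 23, 34 and 33 UMIs, a call that ended in thinned cells. DNAJC12 was called lower in NASH-T than in Con at 0.66 (0.44 to 0.98) from 15.9, 15.2 and 10.5 CPM, beside 12 abundant hepatocyte transcripts at 2187, 2748 and 2626 CPM together in these cells, and turned to 1.15 in thinned cells. HSP90AA1 (84.9, 108 and 93.9 CPM), HSP90AB1 (93.1, 99.5 and 101 CPM), HSPA8 (53.4, 59.2 and 57.7 CPM), HSPH1 (32.8, 41.5 and 32.9 CPM) and HSPB1 (19.1, 17.4 and 23.5 CPM) had no call.

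In T cell-like cells DNAJC6 was the 1 gene of 38 called higher in NASH than in Con and 0 were lower (background 3.41% and 3.59%). In NASH-T against Con 1 of 39 was higher and 1 lower (background 3.64% and 3.23%), and in NASH-T against NASH 3 of 39 were higher and 1 lower (background 4.82% and 3.08%). HSPB1 was at 14.9 (95% interval 9.71 to 21.8), 21.3 (95% interval 14.6 to 30.05) and 35.6 (95% interval 28.4 to 44) CPM, highest in NASH-T, whose interval does not overlap that of Con. The ratio was 2.39 (1.52 to 3.87) to Con and 1.67 (1.10 to 2.59) to NASH; the second call ended in thinned cells and with stricter cell limits. The mitochondrial share of UMIs in this class was also highest in NASH-T, and its part was not tested. DNAJC17, tied to splicing, and HSPBAP1 were called higher in NASH-T than in NASH at 1.67 (1.10 to 2.59) and 1.59 (1.10 to 2.33), from 25.2, 21.3 and 35.6 CPM and 40.6, 27.9 and 44.4 CPM. Stricter cell limits gave 1.45 for the first and thinned cells 1.09 for the second. DNAJC12 was lower in NASH-T than in Con at 0.50 (0.27 to 0.93) on 28, 15 and 19 UMIs, and this call ended with stricter cell limits at 0.58 and in thinned cells at 0.66.

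The analysed genes of the heat-inducible list otherwise had no call in T cell-like cells. HSP90AA1 was at 255, 250.1 and 255 CPM, HSPH1 at 142, 122 and 120.2 CPM, HSPA8 at 88.7, 95.1 and 109 CPM and HSP90AB1 at 88.1, 108 and 122 CPM. The ER set also had no call, with HSPA5 at 67.5, 70.5 and 74.9 CPM and HSP90B1 at 110.4, 109.7 and 122 CPM. Among the genes of the unfolded protein response, DDIT3 (CHOP), a transcription factor of prolonged stress, was called higher in NASH-T at 3.33 (1.76 to 6.84) to Con and 3.12 (1.62 to 6.63) to NASH, from 6.86, 7.32 and 22.9 CPM. It was the 1 gene called higher of 16 measured against Con (background 3.64%) and of 17 against NASH (4.82%). The list medians were 0.02 and 0.08 on the log2 scale.

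In endothelial-like cells 5 of 37 genes measured were called higher and 0 lower in NASH-T than in Con (background 5.19% and 5.78%). In NASH against Con 2 of 32 were higher and 0 lower (background 4.04% and 5.96%), and in NASH-T against NASH 2 of 39 were higher and 0 lower (background 4.89% and 3.99%). The 5 were DNAJB4, HSP90AA1, HSPA8, HSP90B1 and DNAJC16, and of these only the DNAJB4 call held under every alternative tried. DNAJB4 was at 225 (95% interval 191 to 262), 222 (95% interval 193 to 254) and 421 (95% interval 393 to 451) CPM. Con and NASH overlap and NASH-T lies above both, by 1.88 (1.58 to 2.24) and 1.90 (1.63 to 2.22). NASH-T to Con was 1.81 in cluster 4 and 1.49 in cluster 18, and 17.5% (95% interval 13.5 to 22.2%), 17.4% (95% interval 13.8 to 21.4%) and 30.4% (95% interval 27.2 to 33.6%) of thinned cells had a UMI. The same share was 0.798%, 1.04% and 1.5% in T cell-like cells.

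HSP90AB1 was at 94.6 (95% interval 73.3 to 120.1), 171 (95% interval 145 to 199) and 127 (95% interval 112 to 144) CPM in endothelial-like cells, highest in NASH, and the NASH to Con ratio was 1.80 (1.35 to 2.44). HSP90AA1 was at 188, 261 and 291 CPM, with NASH-T to Con at 1.55 (1.28 to 1.89). HSPA8 was at 74.8, 80.6 and 116 CPM, with 1.55 (1.15 to 2.14), and HSP90B1 at 100.3, 129.8 and 151 CPM, with 1.5 (1.16 to 1.97). NASH-T was the highest library for these 3 genes. All 3 stood close to the 1.5-fold line, and with doublets kept they were 1.44, 1.43 and 1.41, which ends the calls. DNAJC16 was at 12.7, 36.6 and 29.3 CPM on 9, 35 and 58 UMIs, with ratios to Con of 2.88 (1.36 to 6.82) and 2.31 (1.14 to 5.30); the first call ended at a minimum of 50 UMIs and the second in thinned cells at 1.93. HSPA13 was called higher in NASH-T than in NASH at 2.80 (1.07 to 9.26) on 10, 5 and 29 UMIs, a call that ended with doublets kept and in thinned cells. HSPA5 (104, 108 and 139 CPM) and HSPB1 (96, 94.2 and 133 CPM) were highest in NASH-T without a call. UBB, a ubiquitin gene, was called higher in NASH-T than in Con at 1.84 (1.54 to 2.21), as was SERPINH1, a collagen chaperone, at 1.69 (1.01 to 2.99).

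HSP90AB1 was called higher in NASH than in Con in 4 of the 8 classes and was above Con in 7 of 8, the hepatocyte-like cells being the exception. Beside the endothelial-like value, stellate or fibroblast-like cells had 77.4, 130.1 and 132 CPM and a NASH to Con ratio of 1.68 (1.17 to 2.45), NK cell-like cells 94.4, 199 and 96.4 CPM and 2.10 (1.33 to 3.35), and gamma-delta T cell-like cells 139, 241 and 181 CPM and 1.74 (1.07 to 2.85). The classes of 1 group share a library and are not replicates. The stellate value fell to 1.27 with doublets kept, and thinned cells gave 1.21 there and 1.84 in NK cell-like cells, all without a call.

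In stellate or fibroblast-like cells 2 of 32 genes were called in NASH against Con (background for both directions 12.4%), 3 of 29 in NASH-T against Con (9.21%) and 0 of 32 in NASH-T against NASH (11.3%), all higher. HSPA5 was at 42.2, 60.1 and 82.5 CPM and DNAJC24, which serves the diphthamide modification of a translation factor, at 40.4, 58.9 and 76 CPM, both highest in NASH-T. Their NASH-T to Con ratios were 1.96 (1.20 to 3.27) and 1.88 (1.14 to 3.19), and that of HSP90AB1 was 1.71 (1.19 to 2.50). The HSPA5 call ended in thinned cells at 1.59, and DNAJC24 was 3.23 there. That of HSP90AB1 ended with doublets kept at 1.40 and in thinned cells at 1.46. DNAJC27 was called higher in NASH than in Con at 3.14 (1.03 to 12.8) on 4, 18 and 7 UMIs, which also ended in thinned cells.

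In NK cell-like cells 2 of 21 genes were called in NASH against Con, both higher (background 9.54%), 0 of 26 in NASH-T against Con (8.22%) and 3 of 23 in NASH-T against NASH, all lower (7.58%). The pair of cytosolic HSP90 genes was high in NASH: HSP90AA1 was at 129, 236 and 162 CPM, with NASH to Con at 1.82 (1.21 to 2.74), and HSP90AB1 was lower in NASH-T than in NASH at 0.49 (0.32 to 0.74). HSPH1, at 72, 115 and 50.9 CPM, and DNAJC15, at 122, 152 and 94.6 CPM, were also lower in NASH-T than in NASH, by 0.44 (0.25 to 0.79) and 0.62 (0.39 to 0.99). NASH was the highest of the 3 libraries for all 4 genes. The 5 calls here ended in thinned cells, where the NASH library kept 112 cells.

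In gamma-delta T cell-like cells 2 of 20 genes were called in NASH against Con, 1 in each direction (background 8.39%), 4 of 24 in NASH-T against Con, all lower (9.15%), and 2 of 21 in NASH-T against NASH, 1 in each direction (7.49%). DNAJC2, a J protein of the ribosome, was at 165, 70.6 and 76.3 CPM, high in Con alone, with ratios of 0.43 (0.20 to 0.84) in NASH and 0.46 (0.28 to 0.77) in NASH-T. Thinned cells gave 0.22 for the second, also called. HSP90B1, at 160.5, 182 and 97.3 CPM, was low in NASH-T, with 0.61 (0.37 to 0.98) to Con and 0.53 (0.32 to 0.89) to NASH. The second call held under every alternative, while the first had intervals that include 1 in thinned cells and over the clusters that every library filled. HSPA4L stood at 0.45 (0.22 to 0.88) in NASH-T to Con on 23 and 17 UMIs, under the stricter minimum of 50. DNAJC10, at 169, 141 and 234 CPM, was called higher in NASH-T than in NASH at 1.66 (1.05 to 2.72), and was 1.23 over the clusters that every library filled, without a call.

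In B cell-like cells 1 of 19 genes was called in NASH against Con (background 7.74%), 1 of 22 in NASH-T against Con (8.51%) and 4 of 21 in NASH-T against NASH (10.0%). DNAJC21, which matures the large ribosomal subunit, was at 58.3, 131 and 58.2 CPM, high in NASH, with NASH to Con at 2.25 (1.01 to 5.16) and NASH-T to NASH at 0.44 (0.21 to 0.93) on 12, 17 and 17 UMIs. DNAJC11 was at 117, 77.1 and 54.8 CPM, with NASH-T to Con at 0.47 (0.23 to 0.92). DNAJC6 and DNAJB14, an ER membrane J protein, were called higher in NASH-T than in NASH, the second at 2.45 (1.01 to 7.14), and DNAJC15 lower at 0.52 (0.29 to 0.95). Each of these 6 calls in B cell-like cells ended under at least 1 alternative, and DNAJC11 moved to 0.71 with doublets kept. The class held 98 cells in NASH.

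Of the wider chaperone network, the other HSP70 and HSP90 cochaperones (16 of 23 listed genes in the matrices) were led by FKBP5, an immunophilin of HSP90 and glucocorticoid receptor complexes that glucocorticoids induce. FKBP5 was at 51.7, 19.4 and 20.7 CPM in hepatocyte-like cells, 199.7, 65.7 and 81.6 CPM in macrophage-like cells and 185, 93.2 and 57.6 CPM in endothelial-like cells. Con was the highest library in all 3 classes. The NASH to Con ratios were 0.38 (0.33 to 0.43), 0.33 (0.28 to 0.38) and 0.50 (0.38 to 0.66), and those of NASH-T to Con 0.40 (0.35 to 0.46), 0.41 (0.36 to 0.46) and 0.31 (0.24 to 0.40). Of the 16 in hepatocyte-like cells 1 was called higher and 2 lower in NASH against Con (background 5.22% and 11.4% of all measured genes). These were UNC45A at 1.58 (1.05 to 2.41) and BAG2 at 0.61 (0.48 to 0.77) beside FKBP5. In NASH-T against Con 1 was higher and 1 lower (background 4.62% and 8.02%), with BAG5 at 2.13 (1.22 to 3.87). BAG3, the partner of HSPB8, was called lower in NASH-T than in NASH in macrophage-like cells at 0.66 (0.54 to 0.81).

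The unfolded protein response list had 0 of 21 genes called higher in hepatocyte-like cells in all 3 comparisons (background 5.22%, 4.62% and 8.12%). Lower calls, set beside 11.4% and 8.02% of all genes, numbered 2 in NASH against Con (P4HB at 0.63 (0.52 to 0.76) and MANF at 0.53 (0.34 to 0.82)) and 4 in NASH-T against Con. Those 4 were EIF2AK3 (PERK), the translation-arresting stress sensor, at 0.65 (0.60 to 0.71), CRELD2 at 0.51 (0.43 to 0.59), P4HB at 0.61 (0.50 to 0.76) and MANF at 0.62 (0.39 to 0.97). The list median was -0.21 in NASH and -0.25 in NASH-T against Con on the log2 scale, beside -0.12 and -0.10 for all genes. The TRiC chaperonin and prefoldin, which fold actin and tubulin, had 0 of 9 called against Con in hepatocyte-like and macrophage-like cells. Higher and lower background there was 5.22% and 11.4% in NASH and 4.62% and 8.02% in NASH-T for hepatocyte-like cells. For macrophage-like cells it was 3.54% and 4.62% in NASH and 3.32% and 6.15% in NASH-T. PFDN5 was called higher in hepatocyte-like cells in NASH-T against NASH at 1.71 (1.35 to 2.18), with a background of 8.12%. The heat shock factors and other heat-inducible genes had 1 of 13 called in hepatocyte-like cells, HMOX1 (heme oxygenase) lower in NASH at 0.51 (0.39 to 0.66), beside a background of 11.4%. HSF4 was at 43.7, 23.6 and 36.7 CPM in macrophage-like cells, lowest in NASH, with 0.54 (0.41 to 0.71) for NASH to Con and 1.56 (1.18 to 2.07) for NASH-T to NASH. Mitochondrial matrix proteostasis genes had 0 of 10 called in NASH against Con in hepatocyte-like cells (background 5.22% and 11.4%). GRPEL1, an exchange factor for HSPA9, was called lower in NASH-T at 0.43 (0.24 to 0.73) to Con (background 8.02%).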

How the data were processed

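Liver cells of 3 pooled libraries were profiled by droplet 3' single-cell RNA sequencing. The values are UMI counts per gene and cell as deposited by the authors, made with Cell Ranger 7.0.0 per the submitters' processing notes. Build, annotation and the use of intron reads: not given in the sources used here. After filtering, the libraries held 23752171 (Con), 29059323 (NASH) and 27005297 (NASH-T) UMIs.

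Cells with at least 200 genes, 500 UMIs and at most 20% mitochondrial UMIs were kept, and Scrublet doublets were removed (expected rate 0.06). Cells were clustered in scanpy 1.11.5 on 2000 variable genes without the 63 genes (30 components, 15 neighbours, Leiden resolution 0.8), giving 26 clusters named from 16 marker sets. 143 of 167 marker names and 129 of 159 names of the 16 gene lists were in the matrices. Clusters that could not be named, a mixed cluster led by STAB2 and KDR, and cholangiocyte-like cells (43 in NASH) were left out of the comparisons. Counts were summed per class and library and compared as CPM with exact intervals (scipy 1.17.1). The intervals were tried on simulated Poisson counts, which hold the counting error they assume and no spread between goats or cells. That trial cannot show how they cover such spread. With 1 library per group no test across samples was run.

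Named genes are those of the 7 role lists, up to 5 per direction with at least 50 UMIs in each class with at least 100 cells per library, those at least 4-fold above the median class, and up to 4 per other list, whatever else a group result needed; calls under 50 UMIs and in B cell-like cells were added after their values were seen. The members and lists were chosen with earlier results of these data known. Alternatives covered cell limits, doublets, thinning, UMI minimum, scaling, variable genes and clusters. A planned search of promoter motifs was not run and no sequences were used here.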

Additional observations from a re-analysis of the deposited data

Results flagged for a closer look

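The ratios of DNAJC6, HSP90B1 and HSPA4L lay on opposite sides of 1 in different cell classes under the same comparison, past the line for a call on both sides. In NASH against Con, DNAJC6 stood at 2.37 in hepatocyte-like cells and 2.31 in T cell-like cells but at 0.65 in macrophage-like cells. In NASH-T against NASH it stood at 1.75 in macrophage-like cells and 2.67 in B cell-like cells but at 0.52 in T cell-like cells. In NASH-T against Con it stood at 1.76 in hepatocyte-like cells but at 0.47 in gamma-delta T cell-like cells. HSP90B1 stood at 1.5 in endothelial-like cells and 0.61 in gamma-delta T cell-like cells in NASH-T against Con. HSPA4L stood at 2.83 in macrophage-like cells and 0.45 in gamma-delta T cell-like cells in the same comparison. With 1 library per group these differences between classes were not tested. The hepatocyte-like and B cell-like values of DNAJC6 and both values of HSP90B1 and of HSPA4L each lost their call under at least 1 other processing.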

How the results depend on the processing

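No paired analysis was possible because each group is 1 pooled library, and no library could be left out. Of 63 called pairs of a gene and a class, 15 were called under every alternative tried. The same share was not worked out for all genes. Calls left numbered 22 of 62 with cells thinned to 1000 UMIs, 46 with predicted doublets kept, 50 at a minimum of 50 UMIs, 55 with stricter cell limits, 57 over the clusters that every library filled, 61 relative to the median gene, 62 with the 63 genes allowed among the variable genes, and 63 with no minimum. Leaving out the low-depth hepatocyte-like cluster 12 (median 819 UMIs), an alternative chosen after seeing the data, left 12 of 12 hepatocyte-like calls. Thinning leaves fewer UMIs and also leaves out the cells under 1000 UMIs, so its values do not describe the whole class. Over the 8 classes, thinning gave 10 higher pairs in NASH against Con (from 16), 7 in NASH-T against Con (from 12) and 5 in NASH-T against NASH (from 13), and the minimum of 50 UMIs gave 5 lower pairs in NASH-T against Con (from 8). In hepatocyte-like cells, NASH against Con had 3 genes higher over the clusters that every library filled and 2 when thinned (from 5). NASH-T against Con had 0 higher with doublets kept, 0 when thinned and 3 relative to the median gene (from 1), and 2 lower with stricter cell limits (from 1). NASH-T against NASH had 1 higher over the clusters that every library filled (from 0). Outside hepatocyte-like cells, 270 of 336 class counts stayed within 1.5 times their value. Directions turned only when thinned, for HSPB11 in hepatocyte-like cells in NASH against Con (1.04), DNAJC6 in hepatocyte-like cells in NASH-T against Con (0.71) and DNAJC12 in macrophage-like cells in NASH-T against Con (1.15). Beyond the fewer UMIs and cells left by thinning, the causes were not tested.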
